A study of Mus musculus with 35 samples.

Results

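The transcription factor NF-κB and the proteins that restrain it were followed in mouse enteric glia through 10 genes, chosen by symbol from the 22180 genes of the deposited table: the subunit genes Nfkb1, Nfkb2, Rela and Relb, the IκB-family genes Nfkbia, Nfkbie and Nfkbiz, and Tnfaip3, Zc3h12a and Birc3, which act on signaling upstream of the factor or on its target mRNAs. The choice was made with earlier results of these data known, so counts of members called are descriptions. All 10 rows were found, and all 10 passed the filter on low values in every comparison. Messenger RNA was sequenced from 35 libraries, 5 biological replicates in each of 7 groups. Of these, 30 came from primary enteric glia of BL6 background wildtype mice, grown from small intestinal neurospheres for 7 days in proliferation medium and then differentiated on Matrigel, laminin or poly-L-ornithine. The sources differ on the time before IL-1β, 3 days of differentiation per the labels and 5 per the methods, and this was not settled. On each coating 5 cultures then received IL-1β (10 ng/ml for 24 h) and 5 received control medium without serum (naive). The remaining 5 libraries, RiboTag, hold mRNA bound to HA-tagged ribosomes, precipitated from the small intestinal muscularis externa of adult Sox10iCreERT2Rpl22HA/+ mice carrying the Cre, in which the Sox10 promoter drives a tamoxifen-dependent Cre that tags ribosomes in Sox10-expressing cells. These mice received no IL-1β but had been injected with tamoxifen and rested before harvest, a treatment that the culture groups did not share.

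NF-κB is a dimer of subunits of one protein family, held in the cytoplasm of resting cells by IκB proteins. When IL-1β binds its receptor, a kinase complex marks IκB for degradation, and dimers such as p50 with RelA enter the nucleus and activate genes of the inflammatory response. Among the genes they activate are those of the IκB proteins and of other inhibitors, so the signal also builds its own brake. A slower, non-canonical branch processes the precursor p100, the product of Nfkb2, into p52, which pairs with RelB.

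The promoters of members were read from RefSeq windows on GRCm38.p6, of which the 250 bases before each annotated start are used here. The windows of 7 members were found, 10 in all, and Nfkb1, Relb and Nfkbiz are named only. The κB consensus, the DNA motif to which NF-κB dimers bind (G bases, then a purine, any base, an A or T, pyrimidines and C bases, 10 bases in all), was sought on both strands. It was in 6 of the 10 windows, several of them of Nfkb2, against 3.9% of 32851 windows of all genes. By gene, it was in windows of 4 of the 7 members (Nfkb2, Nfkbia, Nfkbie and Tnfaip3). The consensus was settled on after looser patterns had been searched in these same windows, so the counts are a description. Shown here, 5′ to 3′ on the gene's own strand and with the consensus or its reverse complement in capitals, are a window each for the 4 members that carry it and, for contrast, the window of Zc3h12a, the member with the largest response to IL-1β, in which it was not found.
Nfkbia (chr12:55492648-55492897, minus strand): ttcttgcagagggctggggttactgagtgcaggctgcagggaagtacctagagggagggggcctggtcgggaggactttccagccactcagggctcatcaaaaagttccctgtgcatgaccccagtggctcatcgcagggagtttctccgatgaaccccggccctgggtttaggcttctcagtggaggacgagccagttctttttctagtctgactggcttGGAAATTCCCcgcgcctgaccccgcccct
Nfkbie (chr17:45555450-45555699, plus strand): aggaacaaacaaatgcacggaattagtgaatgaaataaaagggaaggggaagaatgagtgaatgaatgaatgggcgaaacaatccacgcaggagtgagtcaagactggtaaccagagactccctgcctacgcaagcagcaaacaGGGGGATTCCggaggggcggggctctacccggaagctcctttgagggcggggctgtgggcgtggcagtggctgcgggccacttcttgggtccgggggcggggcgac
Tnfaip3 (chr10:19015411-19015660, minus strand): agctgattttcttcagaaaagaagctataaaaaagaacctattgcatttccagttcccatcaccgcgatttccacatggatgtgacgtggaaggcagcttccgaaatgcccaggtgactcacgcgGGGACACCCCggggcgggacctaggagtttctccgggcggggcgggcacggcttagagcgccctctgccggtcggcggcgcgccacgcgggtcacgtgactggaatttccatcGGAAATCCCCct
Nfkb2 (chr19:46304487-46304736, plus strand): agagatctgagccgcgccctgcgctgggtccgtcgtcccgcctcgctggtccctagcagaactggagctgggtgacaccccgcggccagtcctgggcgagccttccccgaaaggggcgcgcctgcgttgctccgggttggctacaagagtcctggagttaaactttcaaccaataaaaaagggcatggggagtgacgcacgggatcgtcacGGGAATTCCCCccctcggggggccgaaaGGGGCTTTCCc
Zc3h12a (chr4:125127882-125128131, minus strand): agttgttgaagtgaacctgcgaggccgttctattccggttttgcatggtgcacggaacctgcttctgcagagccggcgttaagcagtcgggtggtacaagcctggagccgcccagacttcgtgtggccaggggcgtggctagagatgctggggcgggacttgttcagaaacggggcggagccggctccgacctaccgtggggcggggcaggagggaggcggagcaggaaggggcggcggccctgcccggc
The match in Nfkbia lies from -29 to -20 relative to the start, on the opposite strand, and that in Nfkbie from -106 to -97 on the gene's strand. In Tnfaip3 there are matches from -125 to -116 on the gene's strand and from -12 to -3 on the opposite one. The Nfkb2 window, which lies inside the annotated span of the gene before one of its internal starts, holds overlapping matches between -39 and -29, which read on both strands, and another from -11 to -2 on its own. These are matches of letters, and binding was not measured.

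Libraries summed to between 7522181 and 9185843 normalized counts, a normalized count being a read count that the authors had divided by a size factor of its library. The labelled cell type was checked by its markers: Sox10, a transcription factor of glia, ran from 4923 to 12590.3 normalized counts in the naive cultures and from 13097 to 20215 in RiboTag. Markers of other cells were present. The sum of 10 smooth muscle markers ran from 352329 to 592605 in RiboTag against 8637 to 45133 in naive cultures, with all 10 genes higher, and the sum of 8 fibroblast markers from 24570 to 89853 in naive cultures against 6834 to 10089 in RiboTag. In bulk samples of this kind, fewer cells of a type and less RNA per cell cannot be told apart.

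IL-1β raised all 10 genes. Over the 3 coatings (15 against 15 libraries) each member was higher after IL-1β at an adjusted p under 0.05 (limma), against 3.42% of the 20687 genes tested. The median log2 fold change of the members was 2.44, and that of all genes tested was -0.04. Responses ran from 0.44 on the log2 scale for Rela to 4.81 for Zc3h12a. The median was 1.20 over the 4 subunit genes, 2.85 over the 3 IκB-family genes and 3.66 over Tnfaip3, Zc3h12a and Birc3. The 3.66 is the response of Tnfaip3, a gene with low values, which ran from 2.49 to 4.83 over the alternatives given under processing. Birc3 ran from 2.57 to 3.17 there, and Nfkbiz, whose response is the 2.85, from 2.70 to 3.03. Which of these groups of inhibitors responded more was therefore not settled. All fold changes are differences of log2(normalized count + 2), a scale on which the added 2 shrinks the change of genes with low values. Ratios of means are taken on the counts before the log, and can differ from the fold changes in either direction.

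**Figure D1:**
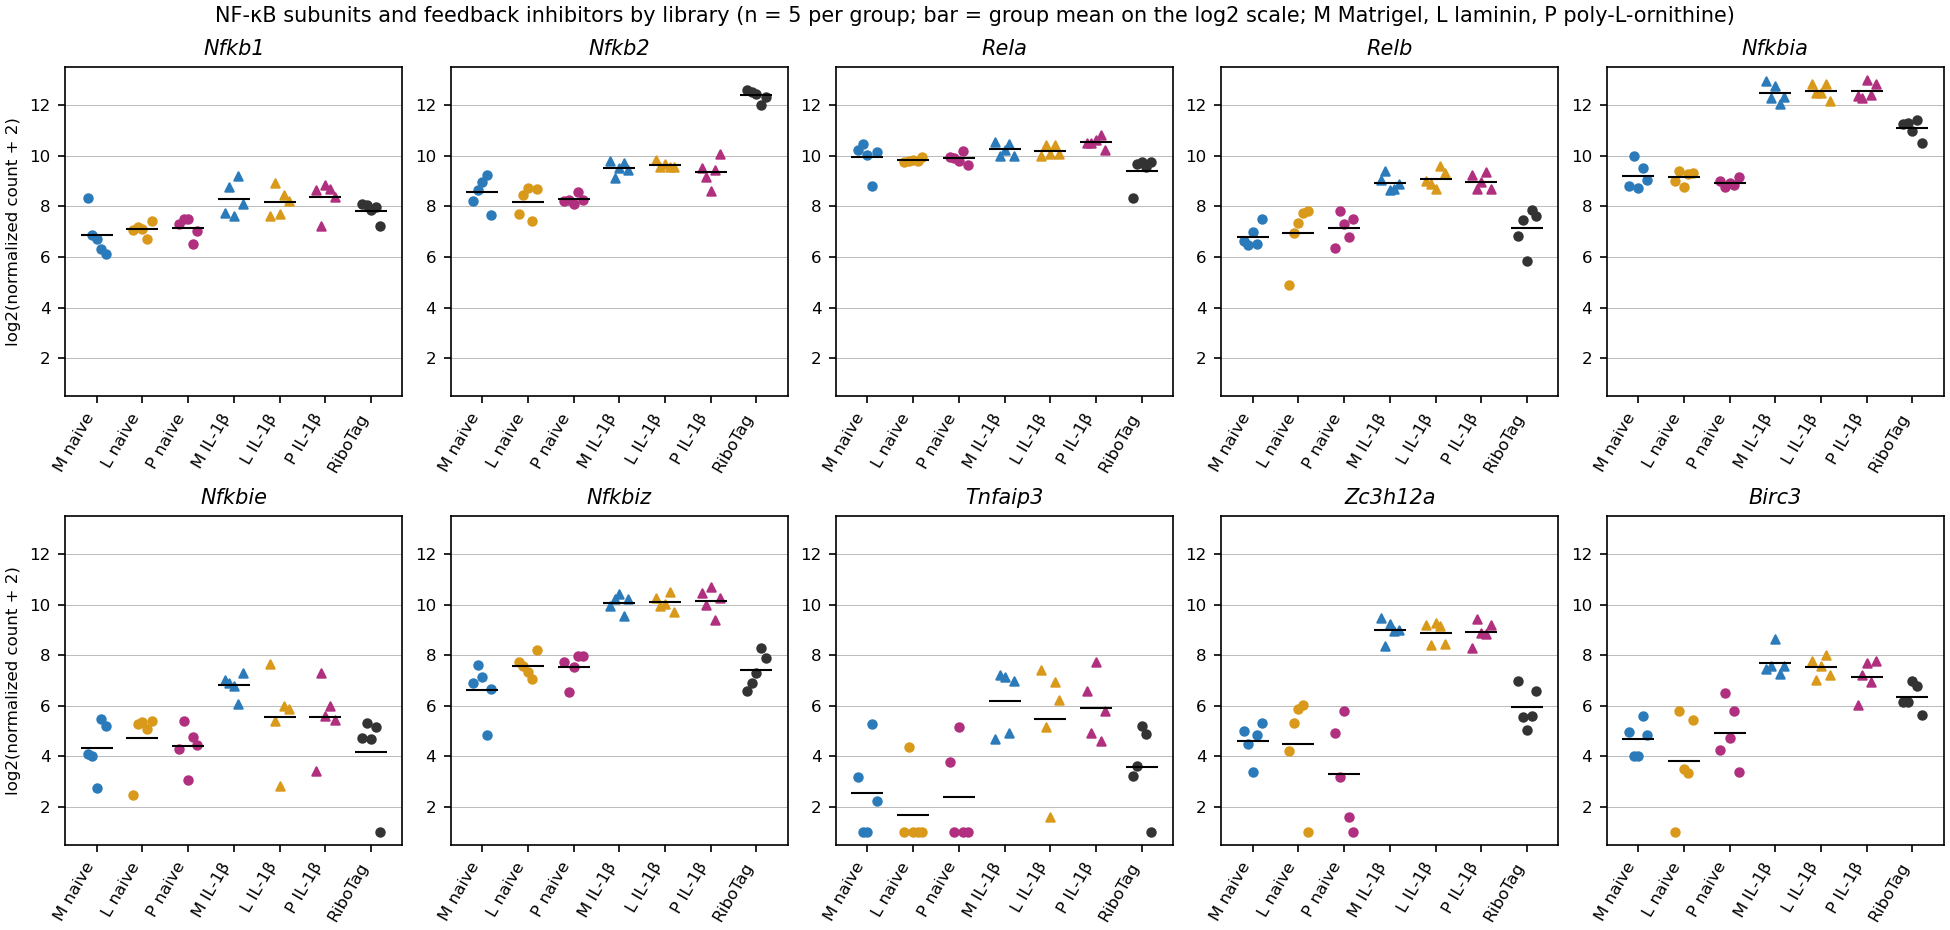
Log2(normalized count + 2) of the 10 members in each of 35 libraries, by group (M Matrigel, L laminin, P poly-L-ornithine; circles without IL-1β, triangles IL-1β), with a bar at each group's mean. Every IL-1β library lies above every naive library for Relb, Nfkbia, Nfkbiz and Zc3h12a, and RiboTag stands highest for Nfkb2.

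Among the subunits, Relb, the partner of p52 in the non-canonical branch, responded most. On Matrigel, Relb was at 96.9, 86.0, 125, 88.6 and 178 normalized counts in the naive libraries and at 532, 671, 397, 411 and 472 after IL-1β. On laminin, Relb was at 27.4, 121, 161, 210.2 and 223 normalized counts in the naive libraries and at 509, 469, 411, 779 and 639 after IL-1β. On poly-L-ornithine, Relb was at 80.0, 227, 156, 109 and 178 normalized counts in the naive libraries and at 596, 411, 499, 661 and 406 after IL-1β. The groups did not overlap on any coating, and the lowest IL-1β library of all, at 397, stood above the highest naive library, at 227. Over the coatings Relb rose by 2.04 on the log2 scale (SE 0.205, adjusted p = 2.24e-11), a ratio of means of 3.80.

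Nfkb2, which encodes p100 and p52, rose by 1.17 (SE 0.151, adjusted p = 3.23e-08), and Nfkb1, which encodes p105 and p50, by 1.24 (SE 0.214, adjusted p = 2.12e-05). On Matrigel, Nfkb2 was at 299, 405, 499.7, 608 and 199 normalized counts in the naive libraries and at 894, 556, 735, 844 and 691 after IL-1β. On laminin, Nfkb2 was at 204, 344, 418, 169 and 417 normalized counts in the naive libraries and at 920.0, 757, 807, 751 and 742 after IL-1β. On poly-L-ornithine, Nfkb2 was at 292, 306, 274, 378 and 303 normalized counts in the naive libraries and at 734, 577, 387, 699 and 1073 after IL-1β. The IL-1β libraries were all above the naive ones on laminin and poly-L-ornithine, and overlapped them on Matrigel. Reads of Nfkb2 may be shared with overlapping genes, 4833438C02Rik (chr19:46303585-46305629, minus strand), which lies within Nfkb2, and Psd, which meets its 3′ end. Psd is described with the RiboTag values.

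The 15 naive libraries held between 68.2 and 322 normalized counts of Nfkb1, and the 15 IL-1β libraries between 147 and 590.0. These ranges overlapped, in part through 1 naive Matrigel library at 322, while the other naive libraries on Matrigel ran from 68.2 to 113.7. On laminin alone every IL-1β library (197 to 488) was above every naive one (103.1 to 168).

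Rela, which encodes the transactivating subunit p65, changed least. Its mean was 1049 ± 366 (SD, n = 5) without and 1232 ± 215 (SD, n = 5) with IL-1β on Matrigel. The corresponding means were 909.9 ± 40.1 (SD, n = 5) and 1182 ± 170.2 (SD, n = 5) on laminin, and 961 ± 139 (SD, n = 5) and 1496 ± 213 (SD, n = 5) on poly-L-ornithine. The response passed the test over the coatings (0.44, SE 0.111, adjusted p = 0.00541) and on none of them alone (adjusted p = 0.611, 0.523 and 0.0651). Rela was nevertheless separated between the groups on 2 coatings, laminin and poly-L-ornithine, where each IL-1β library exceeded each naive one.

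Nfkbia encodes IκBα, the inhibitor that is degraded and made anew in each round of NF-κB activity, and its response had the smallest standard error of the 10. On Matrigel, Nfkbia was at 444, 1027, 422, 733 and 525 normalized counts in the naive libraries and at 7988, 4989, 6874, 4281 and 5062 after IL-1β. On laminin, Nfkbia was at 515, 677, 433, 627 and 636 normalized counts in the naive libraries and at 7331, 5777, 5759.7, 7266 and 4629 after IL-1β. On poly-L-ornithine, Nfkbia was at 513, 431, 481, 465 and 571 normalized counts in the naive libraries and at 5293, 4945, 8217, 5397 and 7223 after IL-1β. The lowest of the 15 IL-1β libraries, at 4281, lay above the highest naive one, at 1027, so no groups overlapped. The mean rose 10.7-fold, by 3.43 on the log2 scale (SE 0.109, adjusted p = 9.74e-30).

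Nfkbiz encodes IκBζ, a nuclear IκB protein that is needed for the induction of a subset of NF-κB target genes. On Matrigel, Nfkbiz was at 116, 195, 139.7, 27.0 and 99.5 normalized counts in the naive libraries and at 996, 1207, 1364, 746 and 1179.8 after IL-1β. On laminin, Nfkbiz was at 209.8, 190.1, 158, 131 and 296 normalized counts in the naive libraries and at 1218, 994, 1046, 1458 and 824 after IL-1β. On poly-L-ornithine, Nfkbiz was at 212, 90.4, 184, 249 and 247 normalized counts in the naive libraries and at 1415, 1016, 1636, 667 and 1215 after IL-1β. No IL-1β library fell within the naive range on any coating. The response was 2.85 (SE 0.192, adjusted p = 2.52e-15), a ratio of means of 6.67.

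Nfkbie, which encodes IκBε, was low and variable. On Matrigel, Nfkbie was at 15.1, 14.3, 4.72, 43.2 and 35.0 normalized counts in the naive libraries and at 129, 118, 109, 66.0 and 156 after IL-1β. On laminin, Nfkbie was at 3.54, 36.6, 38.7, 32.2 and 40.4 normalized counts in the naive libraries and at 199, 40.4, 5.09, 61.2 and 57.0 after IL-1β. On poly-L-ornithine, Nfkbie was at 17.9, 40.7, 6.44, 25.1 and 19.6 normalized counts in the naive libraries and at 8.81, 153, 46.4, 61.4 and 41.3 after IL-1β. Only the Matrigel groups did not overlap. The response passed the test over the coatings (1.50, SE 0.466, adjusted p = 0.0334) and on no single coating (adjusted p = 0.103, 0.796 and 0.636). It lost its call in limma-voom on rebuilt reads (adjusted p = 0.0541) and without any one of 9 of the 30 libraries, with adjusted p between 0.0504 and 0.0761. These were Matrigel naive replicate 3 and IL-1β replicate 5, laminin naive replicate 1 and IL-1β replicates 1, 4 and 5, and poly-L-ornithine naive replicate 3 and IL-1β replicates 2 and 4.

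Zc3h12a, which encodes Regnase-1, an RNase that destroys mRNAs of inflammatory genes, had the largest response. On Matrigel, Zc3h12a was at 30.2, 20.6, 8.49, 27.0 and 37.8 normalized counts in the naive libraries and at 704, 331, 596, 498 and 509.6 after IL-1β. On laminin, Zc3h12a was at 16.8, 37.5, 57.1, 63.6 and 0 normalized counts in the naive libraries and at 581, 339.5, 617, 574 and 343 after IL-1β. On poly-L-ornithine, Zc3h12a was at 28.1, 7.23, 54.3, 1.05 and 0 normalized counts in the naive libraries and at 309, 688, 472, 459 and 585 after IL-1β. The highest naive library reached 63.6 and the lowest IL-1β library 309, so the groups were apart. Its mean rose from 26.0 to 507 normalized counts, 19.5-fold, and by 4.81 on the log2 scale (SE 0.414, adjusted p = 1.16e-11).

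Tnfaip3 encodes A20, a ubiquitin-editing enzyme that shuts off signaling to the kinase complex. It was listed at 0 in 2 of 5 naive libraries on Matrigel, 4 of 5 with laminin and 3 of 5 with poly-L-ornithine, and in no IL-1β library. On Matrigel, Tnfaip3 was at 7.11, 0, 0, 36.7 and 2.76 normalized counts in the naive libraries and at 23.8, 146, 138, 28.8 and 124 after IL-1β. On laminin, Tnfaip3 was at 0, 18.7, 0, 0 and 0 normalized counts in the naive libraries and at 167, 34.0, 1.02, 121 and 72.8 after IL-1β. On poly-L-ornithine, Tnfaip3 was at 11.9, 0, 34.0, 0 and 0 normalized counts in the naive libraries and at 95.2, 28.3, 213, 22.2 and 52.8 after IL-1β. The ranges overlapped on every coating. Over the coatings it rose by 3.66 (SE 0.622, adjusted p = 1.55e-05).

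Birc3 encodes cIAP2, a ubiquitin ligase that acts with TRAF proteins near the receptor. The naive libraries held from 0 to 89.5 normalized counts and the IL-1β libraries from 64.3 to 393. The groups were apart on Matrigel and laminin, and on poly-L-ornithine 1 IL-1β library at 64.3 lay below 1 naive library at 89.5. Birc3 rose by 2.97 (SE 0.387, adjusted p = 4.09e-08), a ratio of means of 6.37.

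Across all 15 against 15 libraries, no overlap was found for 4 of the 10 members, namely Relb, Nfkbia, Nfkbiz and Zc3h12a, where this held for 0.372% of all genes. Within a coating it held for 6 members with Matrigel (1.4% of all genes), 8 with laminin (1.44%) and 6 with poly-L-ornithine (1.84%). None of 15 tested macrophage and leukocyte markers passed the test after IL-1β, with a summed level of 219 to 1190 in naive and 363 to 1784 in IL-1β libraries, Itgam listed at 0 in every naive library and Cd163 in every IL-1β library. Among 10 smooth muscle markers 5 fell, and among 12 glial markers 3 fell, where 831 of all 20687 genes fell and 708 rose. The sum of 8 fibroblast markers ran from 24570 to 89853 in naive libraries (median 49657). After IL-1β it ran from 15305 to 94895 (median 31016). The paper reports other cells beside glia, and a higher share of glia on laminin and Matrigel than on poly-L-ornithine. The part of these cells in the members' values was not tested.

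Which coating the glia grew on was the study's main question. With each coating tested on its own, 7 members were called higher on Matrigel (1.14% of all genes), 7 with laminin (1.15%) and 5 with poly-L-ornithine (1.2%), and the log2 fold change of all 10 was above 0 on all 3. The members that missed the threshold on poly-L-ornithine were Nfkb1 (adjusted p = 0.0742), Rela (0.0651), Nfkbie (0.636), Tnfaip3 (0.0675) and Birc3 (0.069). On Matrigel the exceptions were Rela, Nfkbie and Tnfaip3, and on laminin Nfkb1, Rela and Nfkbie. With only the 10 libraries of a coating in the fit, 9 members passed on poly-L-ornithine, all but Nfkbie, while Tnfaip3 passed on Matrigel (adjusted p = 0.0485) and no longer passed on laminin (0.0818).

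Some of the calls within a coating rested on single libraries. On Matrigel, Nfkb1 (adjusted p = 0.0236) lost its call without naive replicate 2, 3, 4 or 5 or IL-1β replicate 2 or 4 (adjusted p between 0.0506 and 0.116), and in limma-voom on rebuilt reads (0.142). Nfkb2 (adjusted p = 0.0308) lost it there without naive replicate 1, 2 or 5 or IL-1β replicate 1, 3, 4 or 5 (between 0.0537 and 0.166), and on poly-L-ornithine without IL-1β replicate 5 (0.0657). Tnfaip3 on laminin (adjusted p = 0.047) lost its call without any one of 15 libraries, of all 3 coatings (between 0.0504 and 0.158), as it did with a replicate block (0.0674), without robust estimation (0.0811), and when scaled to library totals (0.051) or housekeeping genes (0.0502). Conversely, Tnfaip3 passed on Matrigel without naive replicate 4 (0.027) or laminin IL-1β replicate 3 (0.0372). On poly-L-ornithine 4 members passed without single libraries, namely Birc3 without naive replicate 2 (0.0338) or laminin naive replicate 1 (0.0304), Nfkb1 without IL-1β replicate 2 (0.019), Rela without Matrigel naive replicate 4 (0.0128), and Tnfaip3 without naive replicate 3 (0.0296) or laminin IL-1β replicate 3 (0.0423).

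**Figure D2:**
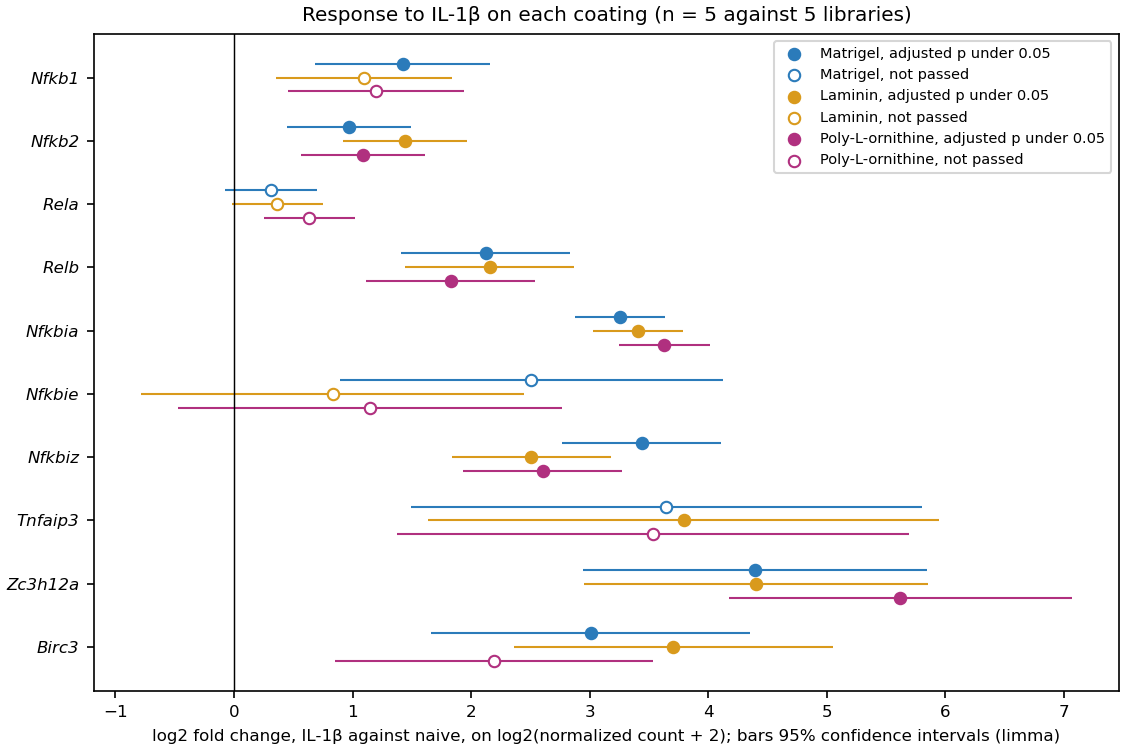
Log2 fold change of each member after IL-1β on each coating (5 against 5 libraries), with 95% confidence intervals from limma. Filled points passed an adjusted p under 0.05. The estimates are all above 0, from 0.31 for Rela on Matrigel to 5.62 for Zc3h12a on poly-L-ornithine, and the intervals of the 3 coatings overlap for every member.

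The response itself was then compared between coatings. None of the 10 members passed in any of the 3 comparisons (limma, 0 of 20687 genes), and none had an unadjusted p under 0.05, where 807, 789 and 666 of all genes did. Intervals were narrow for some members and wide for others. For Nfkbia the response on Matrigel minus that on poly-L-ornithine was -0.38 (95% confidence interval -0.92 to 0.16), and on laminin minus Matrigel 0.15 (-0.39 to 0.69). Nfkbiz was nearest to a difference, with a response 0.93 lower on laminin than on Matrigel (-1.88 to 0.02, unadjusted p = 0.0546). For Tnfaip3 the interval of the same difference ran from -2.91 to 3.20, so that a difference of several-fold between coatings could not have been detected.

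Before IL-1β, no member differed between coatings at an adjusted p under 0.05 (limma, 1 of 20687 genes, 0.00483%, between Matrigel and poly-L-ornithine, and 0 in the other comparisons). Nfkbiz was the 1 member with an unadjusted p under 0.05, with 116 ± 61.3 (SD, n = 5) normalized counts in Matrigel cultures, 197 ± 62.8 (SD, n = 5) in laminin cultures and 197 ± 65.2 (SD, n = 5) in poly-L-ornithine cultures. The Matrigel level was below that of poly-L-ornithine, a difference of -0.91 on the log2 scale (limma, unadjusted p = 0.00882, adjusted p = 0.865). Laminin against Matrigel differed by 0.94 (limma, unadjusted p = 0.00688) and was not called either. Matrigel replicate 4 was at 27.0, and the others on Matrigel ran from 99.5 to 195. After IL-1β the means of Nfkbiz on the 3 coatings were 1098, 1108 and 1190 normalized counts, and no member was called between coatings, where 0.135%, 0.0532% and 0% of genes were.

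The wider pathway was read from 7 lists chosen by role. Counts of genes that rose after IL-1β stand beside 3.42% of all genes tested. Of 4 further subunit and IκB genes, 2 rose after IL-1β: Bcl3, a nuclear IκB protein (3.05, adjusted p = 4.49e-19), and Nfkbib, which encodes IκBβ (1.02, adjusted p = 4.81e-07). Rel, the gene of the subunit c-Rel (0.10, adjusted p = 0.961), and Nfkbid, that of the nuclear protein IκBNS (0.76, adjusted p = 0.515), did not pass. Of 11 genes from TAK1 to the IKK complex, kinases and proteins that act with them, 1 rose. This was Ikbke, which encodes an IKK-related kinase (1.19, adjusted p = 0.00474), and the list's median was 0.17. Map3k8 (1.81, adjusted p = 0.0597) and Ikbkb, the gene of IKKβ (0.37, adjusted p = 0.114), missed the threshold.

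Among 10 TRAF, IAP and RIP proteins, 4 rose, with a list median of 0.69. These were Traf3, an adaptor that restrains the non-canonical branch (1.18, adjusted p = 8.16e-07), Birc2, the gene of cIAP1 (1.37, adjusted p = 1.17e-06), the kinase gene Ripk2 (2.06, adjusted p = 6.33e-05) and the adaptor Traf2 (1.10, adjusted p = 0.019). Of 12 further ubiquitin regulators 2 rose, both A20-binding proteins, Tnip1 (1.46, adjusted p = 4.81e-07) and Tnip3 (2.34, adjusted p = 0.00389). The median of that list was 0.03, near that of all genes.

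Of 10 genes for mRNA decay partners of Regnase-1 and related factors, only Zfp36l1 passed, an mRNA-binding protein that promotes decay (0.40, adjusted p = 0.0214). In the IL-1 receptor complex 4 of 10 genes rose: the receptor Il1r1 (1.50), the inhibitory kinase Irak3 (1.41), the adaptor Myd88 (0.68) and the receptor antagonist Il1rn (2.14), with adjusted p between 5.58e-05 and 0.024. Of 35 tested NF-κB target genes 27 rose and 1 fell, with a median of 3.05. Among them were the chemokine genes Ccl2 (5.93), Cxcl2 (9.83) and Cxcl5 (10.93) and Sod2, which encodes the mitochondrial superoxide dismutase (3.05). This list shares Bcl3, Nfkbid and Traf1 with the others. Like the members and the other lists, it was drawn up with earlier results known, so these counts are a description.

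**Figure D3:**
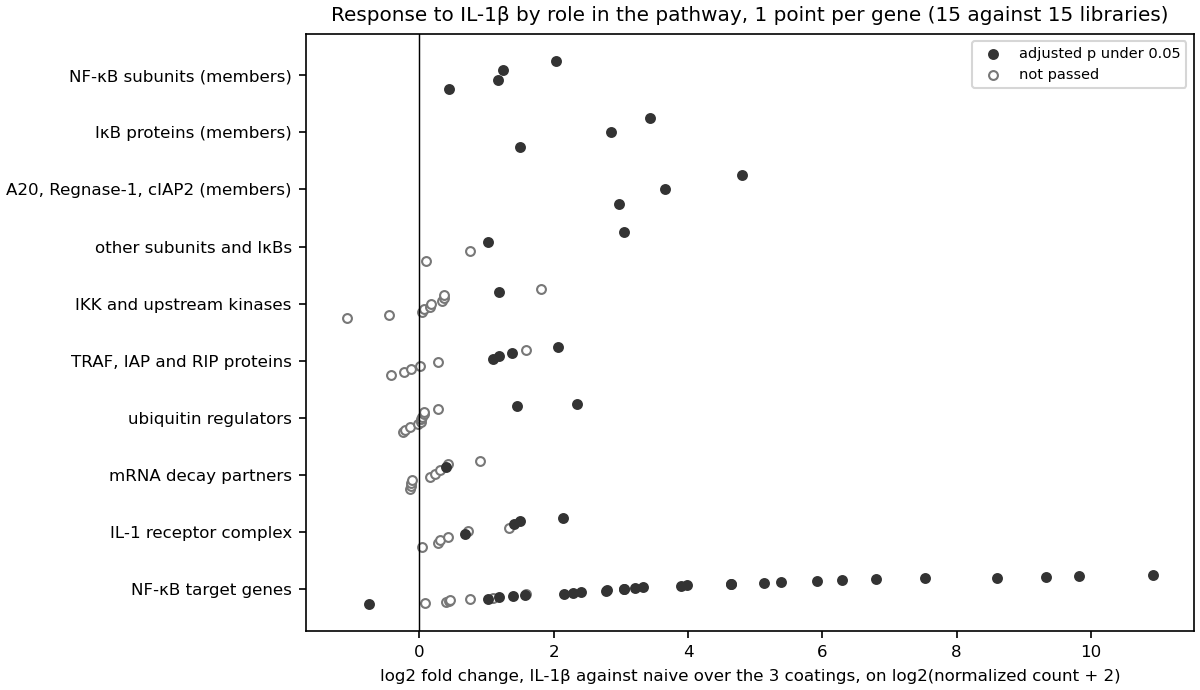
Log2 fold change after IL-1β over the 3 coatings (15 against 15 libraries), a point for each gene, by its role in the pathway. Filled points passed an adjusted p under 0.05. All 10 members passed, as did 27 higher and 1 lower of 35 target genes, and 1 of 11 genes in the list of IKK and upstream kinases.

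How the members varied together was described over the 30 culture libraries, which share the treatment groups. Pearson's r between members on the log2 scale ran from 0.20 (Rela and Nfkbie) to 0.91 (Nfkbia and Nfkbiz). Among 10193 other genes with a mean of at least 50, the genes most like Nfkbia were Sod2 (r = 0.98), Cxcl5 (0.98) and Il13ra2 (0.98), and those most like Nfkbiz the chemokine genes Ccl7 (0.94), Ccl2 (0.93) and Cxcl2 (0.93). Zc3h12a was nearest to Fth1, the ferritin heavy chain gene (0.90), Ier3 (0.90) and Hif1a (0.89). For Nfkbie, the member with the lowest values of this kind, the highest r was 0.70, with Tmem123.

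Of the members, Nfkb2 had the largest difference between RiboTag and naive cultures. Compared with the 15 naive cultures, 4 members were higher in RiboTag (limma, 31.3% of 20320 genes) and none was lower (14.1% of genes). The median log2 fold change over the members was 1.09, against 0.32 over all genes. RiboTag libraries hold RNA on tagged ribosomes, precipitated from tissue, and the cultures total RNA of cultured cells. The effects of the material, the RNA kit and the culture therefore cannot be told apart.

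In RiboTag, Nfkb2 was at 6286, 5960.5, 5583, 4116 and 5192 normalized counts, where the naive cultures ran from 169 to 608 and the IL-1β cultures from 387 to 1073. RiboTag thus lay above every culture library. The mean was 15.9-fold that of the naive cultures, a log2 fold change of 4.05 (SE 0.206, adjusted p = 4.84e-18), and 7.29-fold that of the IL-1β cultures (2.88, adjusted p = 7.68e-17). Nfkb2 (chr19:46300994-46312400, plus strand) overlaps Psd (chr19:46312085-46328127, minus strand), a guanine nucleotide exchange factor gene expressed in neurons, by 316 bases at their 3′ ends on GRCm38.p6. The libraries read 3′ ends, and how strand was used in counting is not given in the sources used here. Reads from the shared 316 bases therefore cannot be told apart by gene, and the Nfkb2 level is uncertain.

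Psd moved in the same direction. It was at 2091 ± 328 (SD, n = 5) in RiboTag and between 0 and 319 in the naive cultures, a log2 fold change of 4.43 (SE 0.792, adjusted p = 0.000185). With Nfkb2 and Psd summed into 1 row, an alternative chosen after seeing the data, the difference from naive cultures was 4.01 (SE 0.177, adjusted p = 1.03e-19) and the response to IL-1β 1.04 (SE 0.131, adjusted p = 1.33e-08). The share of Psd in that sum ran from 22.6% to 32.4% in RiboTag, and from 0% to 61.6% in the naive cultures with a median of 23.7%. After IL-1β Psd itself did not pass (0.69, adjusted p = 0.692).

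**Figure D4:**
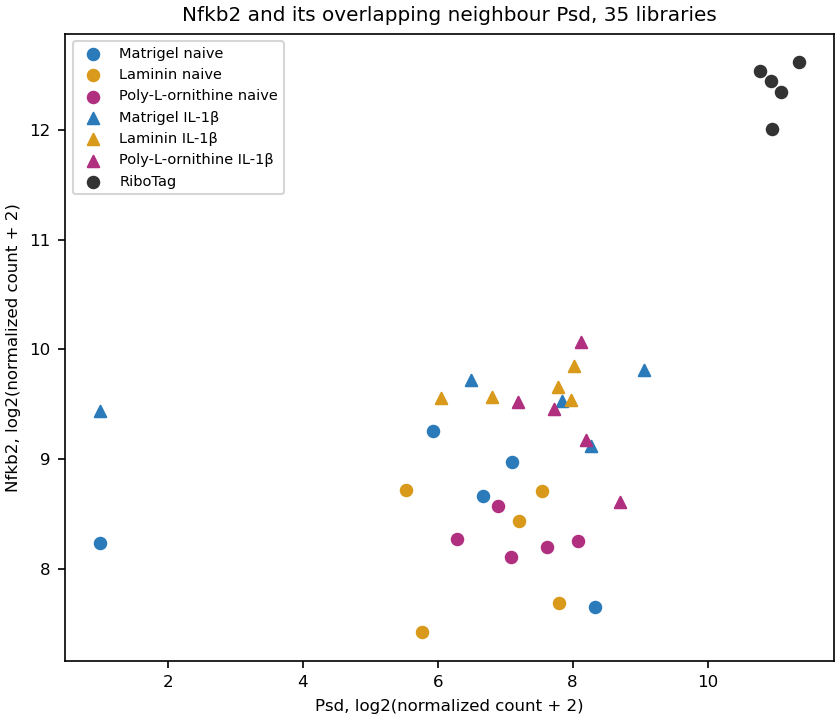
Nfkb2 against Psd, both as log2(normalized count + 2), in 35 libraries. The 5 RiboTag libraries lie apart at the top right, with 4116 to 6286 normalized counts of Nfkb2 and 1745 to 2612 of Psd, and 2 culture libraries have Psd listed at 0.

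Nfkbia was the other member whose RiboTag libraries all lay above the naive cultures, a separation found for 12.2% of genes. It was at 2439, 2543, 2018, 2731 and 1448 in RiboTag, against 422 to 1027 in naive and 4281 to 8217 in IL-1β cultures. RiboTag therefore lay between the groups without touching either. It was 3.95-fold the naive mean (1.99, SE 0.175, adjusted p = 1.14e-11) and below the IL-1β cultures by a difference of -1.44 (adjusted p = 7.02e-09).

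Birc3 (1.87, SE 0.663, adjusted p = 0.0203) and Nfkb1 (0.79, SE 0.300, adjusted p = 0.0295) were higher in RiboTag than in naive cultures with overlapping ranges. Birc3 was at 68.3, 68.7, 126, 109 and 48.3, against 0 to 89.5 in naive cultures. Nfkb1 was at 269, 262, 228, 252 and 148, against 68.2 to 322. Both calls rested on single libraries. Birc3 lost its call without RiboTag replicate 3 (adjusted p = 0.0661) or 4 (0.058), and Nfkb1 without RiboTag replicate 1, 2, 3 or 4 (adjusted p between 0.0568 and 0.0747). Without replicate 4 only 2 members were called, Nfkb2 and Nfkbia.

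The other 6 members did not pass against naive cultures. Zc3h12a was at 124, 44.8, 30.9, 46.9 and 94.8 in RiboTag against 0 to 63.6 in naive cultures (1.82, adjusted p = 0.0523), and Tnfaip3 at 7.31, 10.4, 34.5, 28.0 and 0 against 0 to 36.7 (1.39, adjusted p = 0.181). Rela was at 317, 828, 869, 749 and 854, against 444 to 1420 in naive cultures, and differed by -0.48 (adjusted p = 0.0553). Without RiboTag replicate 2, 3 or 5, or naive replicate 4 on Matrigel, Rela passed as lower (adjusted p between 0.00511 and 0.0477). Zc3h12a passed as higher without laminin naive replicate 2, 3 or 4 or poly-L-ornithine naive replicate 1 or 3 (between 0.0275 and 0.0492), and in limma-voom (0.0139). Relb (0.16), Nfkbiz (0.14) and Nfkbie (-0.29) had adjusted p of 0.750, 0.750 and 0.759. Their 95% confidence intervals were -0.62 to 0.94, -0.56 to 0.85 and -1.76 to 1.17.

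Against the 15 IL-1β cultures, compared with the same RiboTag libraries, 8 members were lower in RiboTag (14.8% of 20415 genes) and Nfkb2 was higher (32.3%). The differences were -2.99 for Zc3h12a, -2.71 for Nfkbiz, -2.27 for Tnfaip3, -1.88 for Relb, -1.79 for Nfkbie, -1.44 for Nfkbia, -1.10 for Birc3 and -0.91 for Rela, with adjusted p between 1.12e-12 and 0.0303. Nfkb1 (-0.45, adjusted p = 0.185) did not pass. Every RiboTag library lay below every IL-1β library for 5 members, Rela, Relb, Nfkbia, Nfkbiz and Zc3h12a, where this held for 6.21% of genes. Without RiboTag replicate 5, in which both genes were listed at 0, Nfkbie (adjusted p = 0.227) and Tnfaip3 (0.0929) no longer passed. In limma-voom on rebuilt reads 5 members were lower, with Nfkbie, Tnfaip3 and Birc3 no longer passing.

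**Figure D5:**
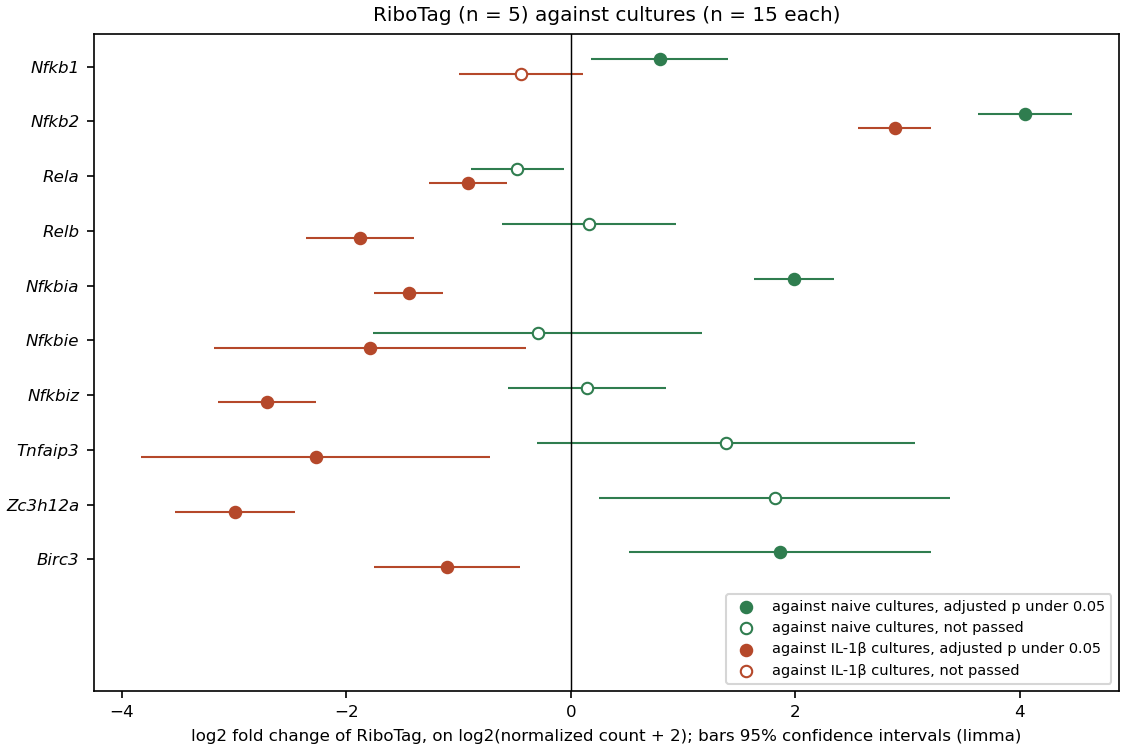
Log2 fold change of each member in RiboTag (n = 5) against naive cultures and against IL-1β cultures (n = 15 each), with 95% confidence intervals from limma. Filled points passed an adjusted p under 0.05. Nfkb2 is at 4.05 and 2.88, and 8 members are below 0 and passed against IL-1β cultures, both sets of points sharing the RiboTag libraries.

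These differences from tissue depended on the scaling. In an alternative, libraries were scaled to the mean count of 4 housekeeping genes (Gapdh, Rpl32, Actb and Pgk1), all 4 of which were lower in RiboTag. Actb, at 27150 to 78193 normalized counts, outweighed the others, of which Rpl32 reached 13220, so the factor mostly followed Actb. With it, the median of all genes moved from 0.32 to 1.27 against naive cultures. Then 9 members were higher than in naive cultures in place of 4, and 4 in place of 8 were lower than in IL-1β cultures. Under that scaling Rela changed sign against naive cultures, to 0.68 (adjusted p = 0.0198), and was at 0.06 against IL-1β cultures (adjusted p = 0.823). Markers of other cells moved with the groups as well. The sum of 16 macrophage and leukocyte markers ran from 1813 to 3194 in RiboTag against 219 to 1190 in naive cultures, with 13 of 16 higher, and that of 12 neuronal markers from 13640 to 20070 against 5067 to 11312, with 10 of 12 higher. The sum of 12 glial markers was higher too, at 35826 to 54189 against 9308 to 25316, with 9 of 12 higher and 1 lower. The part of these cells in the values of Nfkb2, Nfkbia, Birc3 and Nfkb1 was not tested.

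In the rest of the pathway, counts stand beside 31.3% of all genes called higher in RiboTag than in naive cultures and 14.1% called lower. RiboTag and naive cultures differed at 7 of 10 mRNA decay partners, all higher, among them the Roquin genes Rc3h1 (2.02, adjusted p = 2.88e-09) and Rc3h2 (1.94, adjusted p = 6.29e-11). Of the TRAF, IAP and RIP list 7 of 10 were higher and 1 lower, with Traf3 at 2.21 (adjusted p = 5.36e-09) and Traf5 at 2.16 (adjusted p = 1.48e-05). In the list of IKK and upstream kinases 3 of 11 genes were higher and 1 lower, shares near those of all genes. Ikbkg, which encodes the IKK scaffold NEMO, was lower (-1.09, adjusted p = 0.000142) and Tab2, which links TAK1 to ubiquitin chains, higher (1.29, adjusted p = 5.18e-07). In the other ubiquitin list 3 of 12 were higher, among them the deubiquitinase genes Cyld (0.90) and Otud7b (0.82), a share below that of all genes, and none of the 4 further subunit and IκB genes passed. In the receptor list 1 of 10 passed, the inhibitory receptor gene Sigirr (2.08, adjusted p = 0.00499), again below the share of all genes.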

How the data were processed

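The 10 members and all gene lists were chosen with earlier results of these data known. The authors prepared QuantSeq 3′ libraries, trimmed reads with cutadapt, aligned them to mm10 with STAR and quantified and normalized them in Partek Flow with DESeq2. The annotation release and the strand setting used in counting are, in the sources used here, not given. The deposited signal is therefore a normalized count per gene, an estimated count divided by a size factor, and holds no raw depth. Whole reads were not recovered, since between 86.3% and 89.1% of the low values checked in each library were whole multiples of the step (within 0.02). A rough depth from that step was 6866000 to 11670000 reads per library.

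Tests used limma 3.58.1 (R 4.3.3; trend and robust estimation, two-sided) on log2(normalized count + 2), for genes with a maximum over 15 among the libraries of the fit, as in the study's own filter. The culture fit held 6 groups, and each RiboTag fit held RiboTag beside the 3 naive or the 3 IL-1β groups. RiboTag was compared with the mean of the 3 culture groups. Benjamini-Hochberg adjusted p-values cover all genes tested, and called means an adjusted p under 0.05. Named genes were all members, up to 4 genes per pathway list by adjusted p for IL-1β and up to 2 for RiboTag, all 4 further subunit and IκB genes, the 3 genes most like each member, and markers. The test was tested on simulated data. Alternatives changed the pseudocount (1 or 8), the filter (none, or a mean of at least 50), the scaling, robust estimation, a replicate block, the libraries in the fit, limma-voom on rebuilt reads, and each library in turn. Python 3.11.15 with pandas 2.3.3 was used for the tables and matplotlib 3.10.9 for the figures. Promoter windows and positions came from RefSeq (GRCm38.p6). The κB consensus was settled on after looser patterns had been searched in the same windows.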

Additional observations from a re-analysis of the deposited data

Results flagged for a closer look

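In 7 of 70 sets of 5 libraries (a member in a group), the highest or lowest library was set apart from the rest. Its gap was more than 0.71 of the whole range, a limit that gives about 1 in 20 for normally distributed values. The gaps were taken on normalized counts, many of them low, so 7 of 70 cannot be set against that share. Nfkb1 was at 322 normalized counts in naive Matrigel replicate 1, with the others between 68.2 and 113.7 (a gap of 0.82 of the range). Rela was at 317 in RiboTag replicate 1 and between 749 and 869 in the other 4 (0.784). Nfkbie was at 3.54 in naive laminin replicate 1, against 32.2 to 40.4 in the others (0.777), and at 199 in laminin IL-1β replicate 1, against 5.09 to 61.2 (0.711). Tnfaip3 was at 36.7 in naive Matrigel replicate 4, against 0 to 7.11 (0.806), and at 18.7 in naive laminin replicate 2, the other 4 being listed at 0 (a gap of 1, the whole range). Birc3 was at 393 in Matrigel IL-1β replicate 3, against 152 to 188 (0.851).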

How the results depend on the processing

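The count of members called after IL-1β over the coatings was 9 or 10 under every alternative that kept all 10 in the test, and 9 of 9 with a mean of at least 50. On poly-L-ornithine it was 9 in place of 5 when scaled to 4 housekeeping genes and 9 when only the groups compared entered the fit. Against naive cultures, RiboTag had 9 members called in place of 4 when scaled to housekeeping genes, and 2 to 5 on leaving out single libraries (2 without RiboTag replicate 4). Against IL-1β cultures it had 5 in place of 9 with housekeeping scaling. For RiboTag against naive cultures, signs turned for Rela (0.68) and Nfkbie (0.60) with housekeeping scaling, and on leaving out single libraries for 3 members that did not pass: Relb, whose difference ran from -0.022 to 0.48 (negative without laminin naive replicate 1 or RiboTag replicate 4), Nfkbie, from -0.58 to 0.50 (positive without RiboTag replicate 5), and Nfkbiz, from -0.079 to 0.34 (negative without Matrigel naive replicate 4 or RiboTag replicate 4). The cause was not tested.

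The labels do not say whether libraries with the same replicate number share an origin. Over 15 pairs of same-numbered libraries the correlation of deviations ran from -0.127 to 0.129. On poly-L-ornithine all 5 pairs correlated best with their own number (0.073 to 0.129, 4 of them over 0.1), a hint from the data, and on the other coatings none did. With a replicate block, 10 members were called after IL-1β over the coatings and 1485 genes in all, against 1539 without it. By coating, 7 members were called on Matrigel, 6 in place of 7 on laminin (Tnfaip3, adjusted p = 0.0674) and 5 on poly-L-ornithine. The RiboTag counts were 4 and 9 as before.

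Raw depth is not held in the deposited values, so counting error at low values, as in Tnfaip3, Nfkbie and the naive levels of Zc3h12a and Birc3, could not be set apart from spread between cultures.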
